A study of Mus musculus with 16 samples.

Results

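Prostaglandins and leukotrienes are lipid signals that cells make from arachidonic acid, and 10 genes of their synthesis, reception and breakdown were followed here in cells grown from the mouse coronal suture: Alox5, Alox5ap, Ltc4s, Cysltr1, Ptgs1, Ptgs2, Ptges, Hpgds, Ptger4 and Hpgd. The genes came from a given list, and each was read from its brightest probe set that carries a single gene symbol. Of the 10 genes, 9 had such a probe set among 22180 genes in all, and all 9 lay above the brightness floor that 13453 genes passed. Ptgs1 is not analysed here. Hpgd, Cysltr1, Alox5 and Ptgs2 were selected on their patterns in these same arrays, so their values are given as a description without a test. The 5 other measured genes, Alox5ap, Ltc4s, Ptges, Hpgds and Ptger4, were tested.

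The 16 arrays covered Twist1+/- cells and wild-type cells, both on the C57BL6 background, with 8 arrays each. Twist1 encodes a transcription factor of mesenchymal cells, and mice that lack a copy of it fuse the coronal suture early. Cells of either genotype were kept in DMEM with thyroxine at 1 µmol per liter or in DMEM alone (control medium), for 7 days or 3 days, with 1 female and 1 male culture per genotype. Both genotypes came out of 2 mixed litters, each genotype and sex was expanded as a single culture, and the 4 cultures gave every array, so a genotype is represented by 2 cultures. The labels name no promoter or Cre that would limit the lost copy to the suture.

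The enzymes of this pathway work in sequence. Cyclooxygenases, encoded by Ptgs1 and Ptgs2, turn arachidonic acid into prostaglandin H2, from which Ptges makes prostaglandin E2 and Hpgds makes prostaglandin D2. Ptger4 encodes a receptor for prostaglandin E2 that in bone takes part in bone formation, and Hpgd encodes the dehydrogenase that starts the inactivation of prostaglandins. On the leukotriene side, 5-lipoxygenase (Alox5) works with its membrane partner FLAP (Alox5ap), Ltc4s joins glutathione to the product to give leukotriene C4, and Cysltr1 encodes a receptor for the cysteinyl leukotrienes made from it. Leukotriene enzymes are known mainly from cells of the blood lineage such as macrophages, mast cells and neutrophils, while Ptgs2 and Ptges are readily made by mesenchymal cells.

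Values are log2 expression after RMA, which brings the arrays to a similar distribution, and a difference of 1 is a doubling of the signal. The suture cell label was checked against marker lists. Of 14 suture mesenchyme and osteoblast genes 12 were measured and 11 lay above the brightness floor of 3.905, and of 16 macrophage genes all 16 did. Lists for mast cells and neutrophils had 0 of 9 and 0 of 8 genes above the floor, osteoclast genes 4 of 8, endothelial genes 3 of 6 and lymphocyte genes 2 of 5 measured. The wild-type male culture stood apart at 3 days, where its macrophage list averaged 9.54 ± 0.04 (SD, n = 2 arrays) against 8.14 ± 0.30 in the other 3 cultures (n = 6), and its mesenchyme list averaged 8.33 ± 0.07 against 9.20 ± 0.08. At 7 days its mesenchyme list was still apart, at 8.30 ± 0.06 against 9.04 ± 0.12, while its macrophage list was at 9.73 ± 0.26 against 9.70 ± 0.12. Fitted estimates of the tested genes that move with this culture are therefore also given without it. Klf9, a direct target of thyroid hormone, was higher with thyroxine by 0.555 ± 0.06 (SE, adjusted p = 0.00458), which checks the treatment labels.

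Time in culture gave the clearest difference in the pathway. Of the 5 tested genes 3 rose by 7 days, namely Hpgds, Alox5ap and Ltc4s, and 0 fell. Among all 13453 genes 18.5% passed the same test (limma, Benjamini-Hochberg adjusted p under 0.05), 9.84% higher and 8.69% lower at 7 days. Ptges and Ptger4 did not pass. Both media arrays of a culture and day entered this test as separate arrays, with no term for a culture's own change with day. The SE and adjusted p given for day can therefore be too small. Because each array holds RNA of a mixed culture, fewer cells of a type and less RNA per cell cannot be told apart in these values.

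Hpgds, the prostaglandin D2 synthase of blood-lineage cells, ranged between 6.95 and 7.75 with a median of 7.52 on the 8 arrays at 7 days. At 3 days its levels with thyroxine and in control medium were 5.03 and 5.30 in Twist1+/- female cells, 6.20 and 5.74 in Twist1+/- male cells, 5.92 and 5.85 in wild-type female cells, and 7.39 and 7.54 in wild-type male cells. The 2 wild-type male arrays at 3 days thus lay inside the 7-day range and the 6 other 3-day arrays below it. Hpgds was higher at 7 days by 1.36 ± 0.167 (SE), a 2.57-fold rise, with an adjusted p of 0.000394. It was higher in 8 of 8 comparisons of the same culture and medium, 2 per culture. The differences were 1.45 to 2.04 in 3 cultures and 0.14 and 0.17 in the wild-type male culture. Without that culture the difference was 1.71.

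Alox5ap, which encodes the protein that presents arachidonic acid to 5-lipoxygenase, ranged between 9.31 and 9.65 with a median of 9.47 at 7 days. At 3 days, again with thyroxine and in control medium, it read 7.89 and 7.87 in Twist1+/- female cells, 8.54 and 8.22 in Twist1+/- male cells, 8.21 and 8.18 in wild-type female cells, and 9.36 and 9.42 in wild-type male cells. As with Hpgds, the wild-type male arrays were already at the 7-day level on day 3. The rise was 1.00 ± 0.128 (SE), or 2.0-fold, with an adjusted p of 0.000443, and the difference was 1.23 without the wild-type male culture. A second, dimmer probe set of Alox5ap gave 0.39 (adjusted p = 0.133), so the call rests on the brighter one.

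Ltc4s, the synthase of leukotriene C4, spread more widely at 7 days, between 5.70 and 6.70 with a median of 6.10. At 3 days its levels with thyroxine and in control medium were 4.86 and 5.01 in Twist1+/- female cells, 5.27 and 4.94 in Twist1+/- male cells, 4.90 and 5.18 in wild-type female cells, and 5.44 and 5.79 in wild-type male cells. Of the 3-day arrays 1, wild-type male in control medium, reached the 7-day range. The rise was 0.92 ± 0.134 (SE), or 1.9-fold, with an adjusted p of 0.000696, and it was 1.18 without the wild-type male culture. With the Twist1+/- arrays of day 7 left out the comparison rests on wild-type cells alone, and none of the 3 calls held, with adjusted p of 0.216 for Hpgds, 0.189 for Alox5ap and 0.188 for Ltc4s.

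Ptges, the inducible prostaglandin E2 synthase, spanned 6.52 to 7.10 at 7 days and 6.48 to 7.12 at 3 days, with a difference of -0.02 ± 0.077 (SE, adjusted p = 0.911). The ranges coincided almost fully. Ptger4 spanned 5.34 to 5.87 at 7 days and 5.16 to 5.70 at 3 days. Its difference of 0.23 ± 0.098 (SE) had an adjusted p of 0.136, with 7 of 8 matched comparisons higher. The wild-type male culture in control medium was the exception at -0.20, and without that culture the difference was 0.34.

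The genes selected on their patterns moved in both directions with time. Hpgd, the prostaglandin-degrading enzyme, averaged 8.01 ± 0.205 at 7 days and 6.01 ± 0.908 at 3 days (SD, n = 8 each), a difference of 2.00 or 3.99-fold. Its 8 arrays at 7 days all lay between 7.81 and 8.35. Its 3-day levels with thyroxine and in control medium were 5.53 and 5.81 in Twist1+/- female cells, 5.62 and 5.02 in Twist1+/- male cells, 5.55 and 5.72 in wild-type female cells, and 7.53 and 7.34 in wild-type male cells. In the wild-type male culture Hpgd differed between the days by 0.57 with thyroxine and 0.51 in control medium.

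Cysltr1, the cysteinyl leukotriene receptor, averaged 5.09 ± 0.449 at 7 days and 4.07 ± 0.633 at 3 days (SD, n = 8 each). The 7-day arrays ranged from 4.18 to 5.58 and the 3-day arrays from 3.24 to 5.10, and the wild-type male arrays were again the highest at 3 days, at 5.10 with thyroxine and 4.81 in control medium. This gene lay below the brightness floor on 3 of the 8 arrays at 3 days, where RMA values are compressed. The brightest probe set of Alox5 showed no such order, with 5.75 to 7.47 at 7 days and 5.53 to 6.61 at 3 days, whereas a second probe set of the gene was higher at 7 days in 7 of 8 matched comparisons.

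Ptgs2, the inducible cyclooxygenase, ran the other way and averaged 10.11 ± 0.985 at 7 days and 10.87 ± 0.619 at 3 days (SD, n = 8 each). It was lower at 7 days in 8 of 8 matched comparisons, by amounts that gave differences between -1.46 and -0.23. The 2 ranges overlapped, since the cultures differed in level at both times. In wild-type male cells Ptgs2 stood at 11.43 with thyroxine and 11.35 in control medium at 7 days and at 11.79 on both arrays at 3 days, above every other array of the same day.

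**Figure D1:**
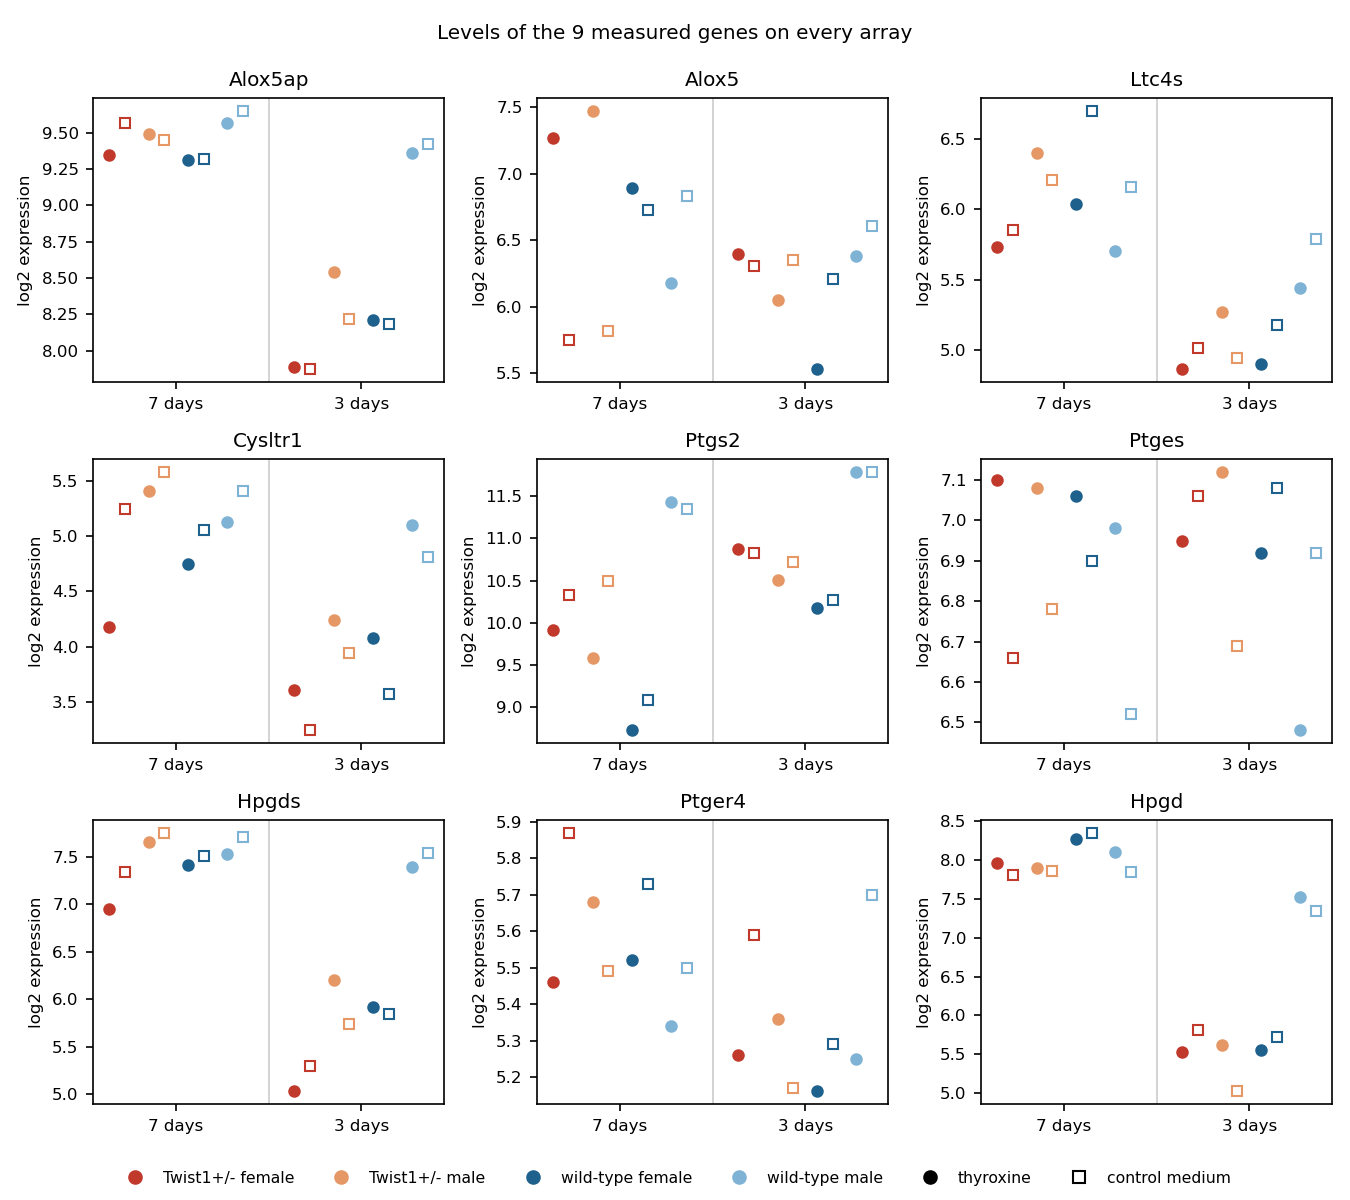
Log2 expression of the 9 measured genes on each of the 16 arrays, 7 days left of 3 days, with a colour per culture, filled circles for thyroxine and open squares for control medium; vertical scales differ between genes. The 6 arrays of the other cultures are low at 3 days for Hpgds, Alox5ap and Hpgd, while the 2 wild-type male arrays are not, and Ptgs2 is highest in wild-type male cells.

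The macrophage list moved together with these genes. All 16 of its members passed the test of day in the higher direction, with a median difference of 1.256 and a range of 0.72 to 1.54, against a median of -0.02 over all tested genes. Csf1r, the receptor for the macrophage growth factor, was higher by 1.07 ± 0.163 (SE, adjusted p = 0.000949), and Adgre1, an adhesion receptor of mature macrophages, by 1.39 ± 0.191 (SE, adjusted p = 0.000569). The mean of the list averaged 9.71 ± 0.14 at 7 days with a range of 9.49 to 9.92, and 8.49 ± 0.69 at 3 days with a range of 7.72 to 9.56 (SD, n = 8 each). Its matched difference was 1.24 to 1.77 in the 3 other cultures and 0.04 and 0.36 in the wild-type male culture, the culture in which Hpgds, Alox5ap, Ltc4s and Hpgd also differed least between days. The part of macrophages in the higher levels of these genes was not tested. The mast cell and neutrophil lists, whose cells also make leukotrienes, averaged 2.70 ± 0.11 and 2.74 ± 0.09 at 7 days and 2.65 ± 0.08 and 2.80 ± 0.09 at 3 days, below the brightness floor at both times.

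**Figure D2:**
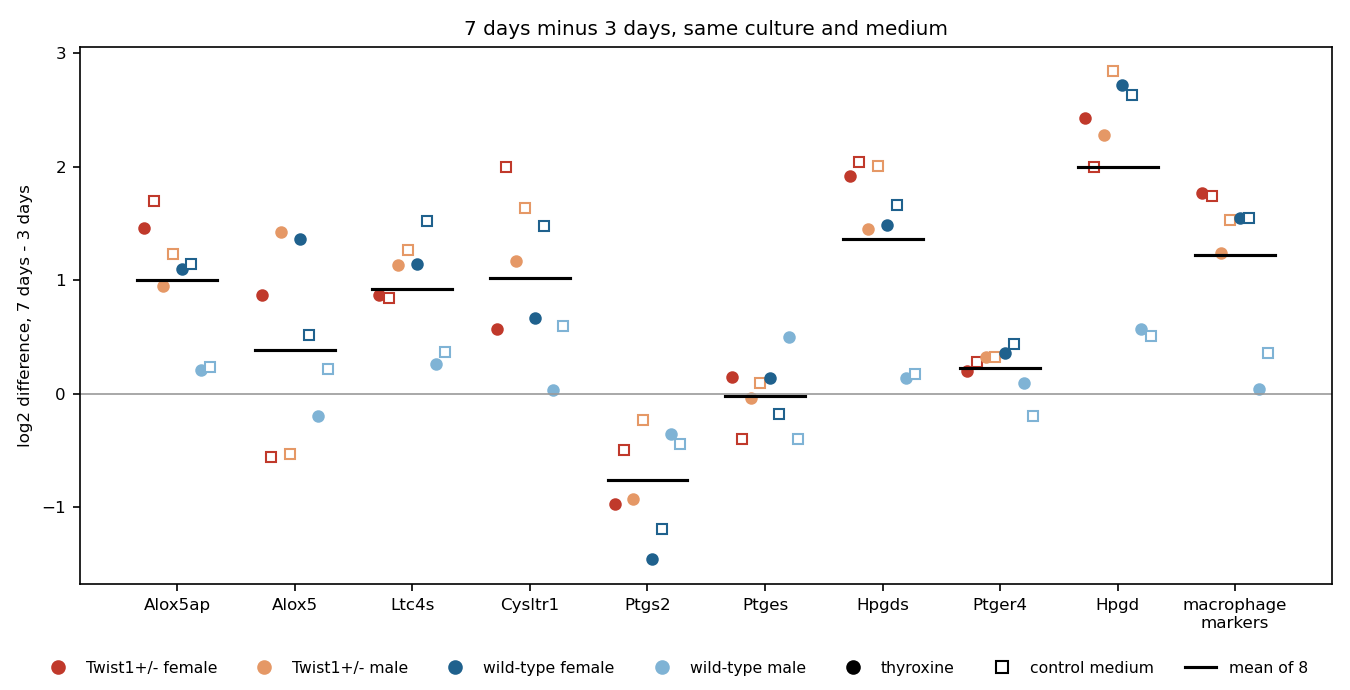
Log2 difference between 7 days and 3 days within the same culture and medium for each of the 9 genes and for the mean of the 16 macrophage markers, with a colour per culture, filled circles for thyroxine, open squares for control medium and a black bar for the mean of the 8 differences. Differences in the wild-type male culture lie near 0 for Alox5ap, Hpgds and the macrophage list, and all 8 differences of Ptgs2 are negative.

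For genes that moved with time, the DNA around the start of the gene is shown to give the letters behind the names. RefSeq held a start region (250 bases before and 50 from the start, assembly GRCm38.p6) for 8 of the 10 genes, and 4 are printed, those of Hpgds and Ltc4s, which rose, and of the selected genes Hpgd and Ptgs2. Capitals mark every match, on either strand, to TATAAA (the TATA box), CACGTG (an E-box of the kind bound by basic helix-loop-helix factors), GAGGAA (an Ets core as bound by the myeloid factor PU.1, TTCCTC on the other strand) or AGGTCA (a half-site of nuclear receptors including thyroid hormone receptors). The regions are chr6:65144681-65144980 on the minus strand for Hpgds, chr11:50238483-50238782 on the minus strand for Ltc4s, chr8:56294302-56294601 on the plus strand for Hpgd and chr1:150099781-150100080 on the plus strand for Ptgs2, each written 5′ to 3′. RefSeq's start for Hpgds in this table lies inside the outermost end of the gene model, and the other 3 printed starts are at it.
Hpgds: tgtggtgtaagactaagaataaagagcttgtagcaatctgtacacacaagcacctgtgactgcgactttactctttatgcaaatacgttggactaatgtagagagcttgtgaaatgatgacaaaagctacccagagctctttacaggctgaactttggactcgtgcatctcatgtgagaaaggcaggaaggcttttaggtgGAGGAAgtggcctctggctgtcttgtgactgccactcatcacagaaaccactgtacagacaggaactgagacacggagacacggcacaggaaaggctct
Ltc4s: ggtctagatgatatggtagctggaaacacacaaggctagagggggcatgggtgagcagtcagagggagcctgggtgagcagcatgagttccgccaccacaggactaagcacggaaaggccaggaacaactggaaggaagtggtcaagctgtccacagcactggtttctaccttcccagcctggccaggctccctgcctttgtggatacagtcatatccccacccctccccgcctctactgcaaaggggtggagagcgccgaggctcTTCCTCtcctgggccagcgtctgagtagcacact
Hpgd: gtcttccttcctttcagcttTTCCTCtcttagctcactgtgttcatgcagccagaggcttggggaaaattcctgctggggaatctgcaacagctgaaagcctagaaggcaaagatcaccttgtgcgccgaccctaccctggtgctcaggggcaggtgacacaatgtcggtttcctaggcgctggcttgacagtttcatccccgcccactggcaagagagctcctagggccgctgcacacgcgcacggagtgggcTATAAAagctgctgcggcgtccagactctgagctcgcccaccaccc
Ptgs2: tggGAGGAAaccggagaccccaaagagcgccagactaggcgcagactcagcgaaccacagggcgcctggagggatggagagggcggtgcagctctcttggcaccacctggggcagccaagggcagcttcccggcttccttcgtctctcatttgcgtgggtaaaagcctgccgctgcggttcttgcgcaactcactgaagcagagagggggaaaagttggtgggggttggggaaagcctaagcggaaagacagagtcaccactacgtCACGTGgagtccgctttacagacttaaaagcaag

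The GAGGAA letters stood in 7 of the 8 regions, all but that of Ptger4, and in 28.3% of 32851 start regions of the same length. Among the 7 were Ptges, which did not pass on day, Ptgs2, which was lower at 7 days, and Ptgs1, which was not analysed. With the start base counted as 0, they began at -49 in Hpgds, at 16 in Ltc4s, at -230 in Hpgd and at -247 in Ptgs2. CACGTG was found in 1 of the 8 regions, that of Ptgs2 at 16, against 7.15% of all regions. TATAAA was found in 1, that of Hpgd at 4, against 13.6%. Both matches began after the annotated start, and whether the Hpgd letters act as a TATA box was not tested. AGGTCA was in 0 of the 8 regions and in 16.3% of all. These are matches of letters in a short window, and no binding was measured.

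A wider list of 54 further genes of arachidonic acid release, prostanoid and leukotriene synthesis, transport, reception and breakdown held 49 measured and 36 tested genes. On the comparison of days 9 of the 36 rose and 2 fell, where 9.84% of all tested genes were higher and 8.69% lower, with a median difference of -0.01, against -0.02 over all tested genes. The 4 largest rises were in Pla2g7, the phospholipase that inactivates platelet-activating factor, Tbxas1, the thromboxane synthase, Dpep2, a dipeptidase that turns leukotriene D4 into leukotriene E4, and Pla2g15, the lysosomal phospholipase.

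Pla2g7 averaged 6.23 ± 0.25 at 7 days and 4.83 ± 0.89 at 3 days (SD, n = 8 each), higher by 1.40 ± 0.202 (SE, adjusted p = 0.000681). Tbxas1 averaged 6.39 ± 0.21 at 7 days and 5.22 ± 0.64 at 3 days, higher by 1.17 ± 0.136 (SE, adjusted p = 0.000344). Dpep2 averaged 7.89 ± 0.14 at 7 days and 6.90 ± 0.69 at 3 days, with an adjusted p of 0.00187. At 3 days the 2 wild-type male arrays averaged 6.22 for Pla2g7, 6.18 for Tbxas1 and 7.93 for Dpep2, against 4.36, 4.90 and 6.56 in the other 3 cultures, the same split as for Hpgds and Alox5ap. Pla2g15 was higher by 0.58 (adjusted p = 0.000671), averaging 8.48 ± 0.17 at 7 days and 7.90 ± 0.21 at 3 days, and the split was smaller, at 8.14 in wild-type male cells and 7.82 in the others.

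The 2 genes that fell were Slco2a1, the transporter that takes up prostaglandins, and Ptgis, the prostacyclin synthase. Slco2a1 averaged 8.12 ± 0.82 at 7 days and 9.16 ± 0.39 at 3 days (SD, n = 8 each), with a difference of -1.04 ± 0.258 (SE, adjusted p = 0.0153). Ptgis averaged 7.37 ± 0.23 at 7 days and 7.61 ± 0.26 at 3 days, with a difference of -0.25 ± 0.062 (SE, adjusted p = 0.0166). The lower level of Slco2a1 stood beside the lower level of Ptgs2 at 7 days, and both were higher in the wild-type male culture, where Slco2a1 averaged 9.36 over its 4 arrays against 8.40 in the other cultures.

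Thyroxine left the tested genes of the pathway without a call. Of the 5 genes 0 passed, where 0.0966% of all 13453 genes did. The estimates over 8 pairs of thyroxine and control arrays were -0.19 ± 0.08 (SE) for Ltc4s (adjusted p = 0.786), -0.16 ± 0.092 for Ptger4 (adjusted p = 0.836), 0.14 ± 0.073 for Ptges (adjusted p = 0.829), -0.08 ± 0.079 for Hpgds (adjusted p = 0.907) and 0.01 ± 0.053 for Alox5ap (adjusted p = 0.994). In the wider list 0 of 36 genes passed, and the largest estimates were 0.209 for the prostaglandin E2 receptor Ptger2 and 0.199 for Ptgis in the higher direction and -0.204 for Akr1c18, a reductase of prostaglandins and progesterone, and -0.19 for the thromboxane receptor Tbxa2r in the lower. The macrophage list differed little between media, by -0.052 on average over the 8 pairs.

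Ltc4s was the tested gene whose thyroxine difference varied most between genotypes. In Twist1+/- cells Ltc4s read 5.73 and 6.40 with thyroxine against 5.85 and 6.21 in control medium at 7 days, and 4.86 and 5.27 with thyroxine against 5.01 and 4.94 in control medium at 3 days, female before male. In wild-type cells it read 6.04 and 5.70 with thyroxine against 6.70 and 6.16 in control medium at 7 days, and 4.90 and 5.44 with thyroxine against 5.18 and 5.79 in control medium at 3 days. The pairs thus went in both directions in Twist1+/- cells, and 4 of 4 wild-type pairs were lower with thyroxine, by a mean of -0.44. The difference between the genotypes was 0.50 ± 0.161 (SE) with an adjusted p of 0.403, so it did not pass. None of the 5 genes passed this comparison, which 0.0595% of all genes did.

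For Ptges the pairs differed between the times. With thyroxine it was higher in 4 of 4 pairs at 7 days, reading 7.10, 7.08, 7.06 and 6.98 with thyroxine against 6.66, 6.78, 6.90 and 6.52 in control medium, while at 3 days 1 of 4 pairs was higher. The thyroxine difference at 7 days minus that at 3 days was 0.41 ± 0.145 (SE) with an adjusted p of 0.892. It did not pass, nor did the 4 other tested genes, in a comparison that 0.00743% of all genes passed.

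**Figure D3:**
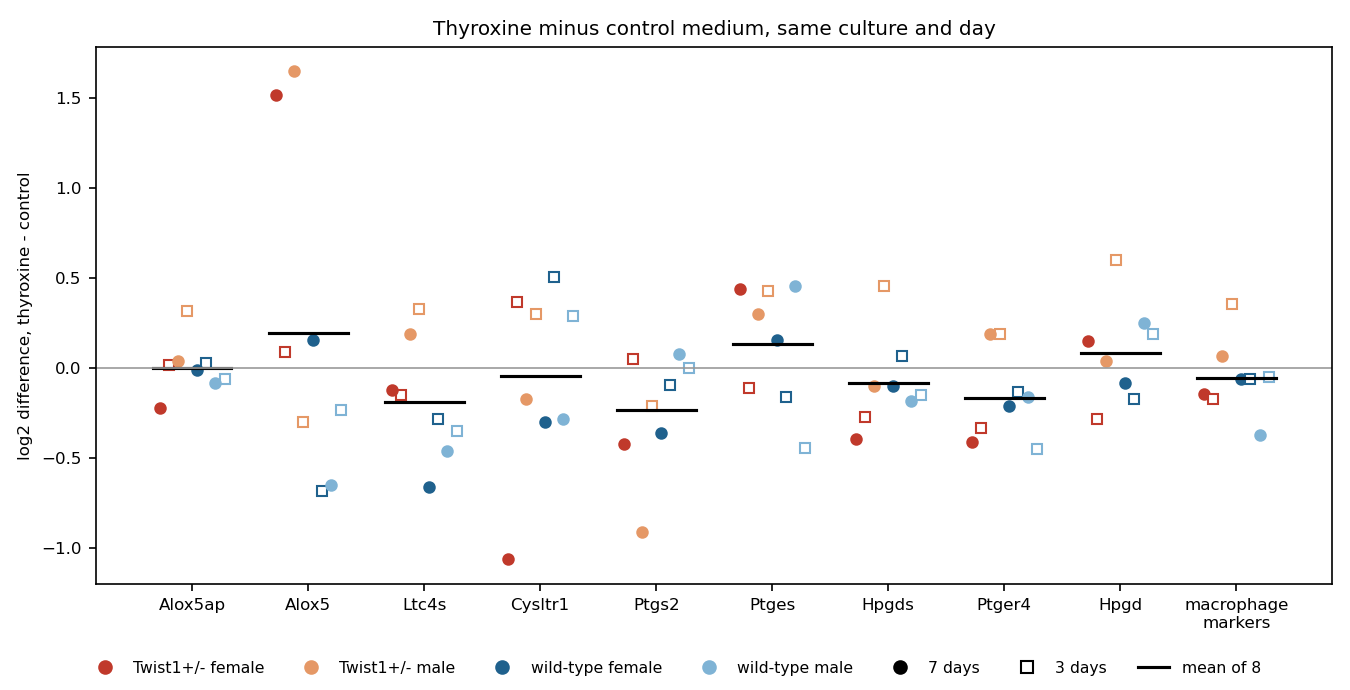
Log2 difference between thyroxine and control medium within the same culture and day for each of the 9 genes and for the mean of the 16 macrophage markers, with a colour per culture, filled circles for 7 days, open squares for 3 days and a black bar for the mean of the 8 pairs. The 2 Twist1+/- pairs of Alox5 at 7 days stand at 1.52 and 1.65, and the mean of its 8 pairs is 0.195. The means of the 8 other genes lie between -0.23 and 0.14, and their single pairs between -1.06 (Cysltr1) and 0.60 (Hpgd).

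Alox5 was selected on its pattern in these arrays, and its values are given as a description. At 7 days the Twist1+/- arrays read 7.27 and 7.47 with thyroxine against 5.75 and 5.82 in control medium, differences of 1.52 and 1.65. The wild-type arrays read 6.89 and 6.18 with thyroxine against 6.73 and 6.83 in control medium. At 3 days the pairs of both genotypes differed by between -0.68 and 0.09.

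The array carries a second probe set for Alox5, and it did not repeat this difference in size. At 7 days it read 7.01 and 7.51 with thyroxine against 6.88 and 7.11 in control medium in Twist1+/- cells, differences of 0.13 and 0.40. On the 2 Twist1+/- control arrays of day 7, the brightest probe set lay at 5.75 and 5.82, low within the 5.53 to 7.47 of the 14 other arrays, whereas the second lay at 6.88 and 7.11, high within their 5.30 to 7.51. The second probe set of Alox5ap was at 3.47 and 4.83 on the same 2 arrays, against 5.26 ± 0.54 on the 14 others (SD), while its brightest probe set was at 9.57 and 9.45. The probe sets of a gene therefore disagreed on these 2 arrays for both genes, and the transcripts each of them reads were not analysed here. By time, the second Alox5 probe set was higher at 7 days in 7 of 8 matched comparisons with a mean difference of 1.10, against 0.39 for the brightest.

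**Figure D4:**
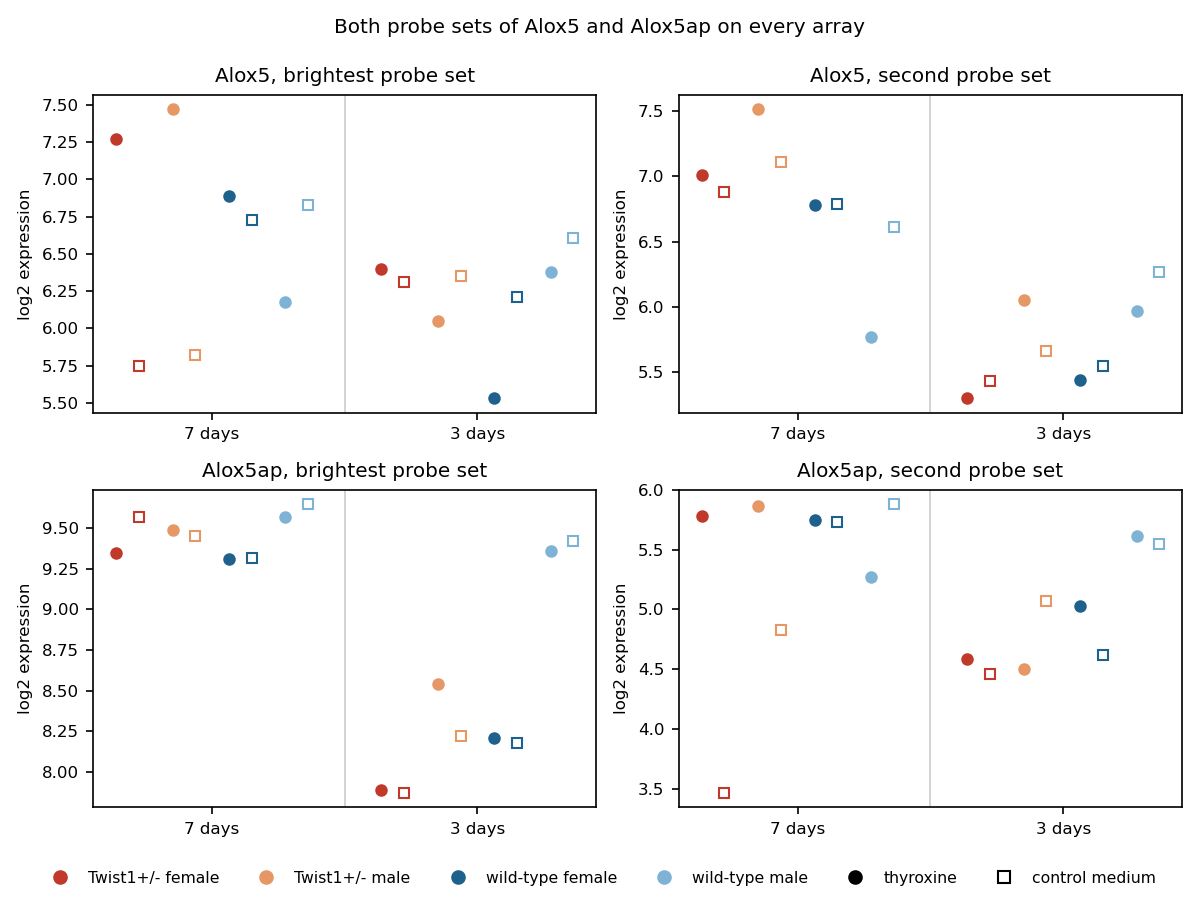
Log2 expression of Alox5 and Alox5ap on each of the 16 arrays, from the brightest and the second probe set of each gene, 7 days left of 3 days, with a colour per culture, filled circles for thyroxine and open squares for control medium; vertical scales differ. At 7 days the 2 Twist1+/- control arrays are low for the brightest Alox5 probe set and for the second Alox5ap probe set, and not for the other 2 probe sets.

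In single pairs the other selected genes had smaller thyroxine differences than the 2 Twist1+/- pairs of Alox5 at 7 days. Over all 8 pairs Alox5 averaged 0.195. Cysltr1 was higher with thyroxine in 4 of 4 pairs at 3 days, by 0.29 to 0.51, and lower in 4 of 4 pairs at 7 days, with differences between -1.06 and -0.17. Ptgs2 averaged -0.23 over the pairs, with 5 lower, 2 higher and 1 equal. Its largest difference was in Twist1+/- male cells at 7 days, with 9.58 with thyroxine and 10.49 in control medium. Hpgd averaged 0.09 over the pairs and went in both directions.

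Between the genotypes 0 of the 5 tested genes passed, as did 0% of all genes, 619 of which had an unadjusted p under 0.05. Hpgds had the largest estimate, at -0.61 ± 0.237 (SE) for Twist1+/- minus wild type, with an adjusted p of 0.937. Matched by sex, day and medium, its differences averaged -1.11 at 3 days and -0.12 at 7 days. Alox5ap was at -0.33 ± 0.181, Ltc4s at -0.20 ± 0.19, Ptges at 0.07 ± 0.109 and Ptger4 at 0.05 ± 0.139 (SE, adjusted p between 0.937 and 0.977). Without the wild-type male culture, where no spread between cultures enters the fit, the estimates were -0.517 for Hpgds (adjusted p = 0.056), -0.085 for Alox5ap (adjusted p = 0.818), -0.343 for Ltc4s (adjusted p = 0.251), -0.048 for Ptges (adjusted p = 0.905) and 0.12 for Ptger4 (adjusted p = 0.778). The macrophage list differed by -0.428 on average over the 8 matched comparisons, with a range of -1.35 to 0.26, and the lowest values came from the male comparison at 3 days, which holds the wild-type male arrays. The mesenchyme list differed by between -0.26 and -0.16 in the 4 female comparisons and by 0.80 to 0.93 in the 4 male comparisons, and the part of either list in these differences was not tested. In the wider list 0 of 36 genes passed, with the largest estimates for the leukotriene-cleaving dipeptidase Dpep1 at 0.691 and the epoxide hydrolase Ephx2 at 0.396, and for Pla2g7 at -0.409 and Tbxas1 at -0.336. Dpep1 averaged 4.77 in the wild-type male culture against 6.26 in the other cultures.

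The change with time was also set between the genotypes, and 0 of the 5 genes passed there, like 0% of all genes, of which 1174 had an unadjusted p under 0.05. The estimate in Twist1+/- minus that in wild-type cells was 0.99 ± 0.334 (SE) for Hpgds, with an adjusted p of 0.559, and 0.665 ± 0.255 (SE) for Alox5ap, also with an adjusted p of 0.559. Without the wild-type male culture the estimate was 0.28 for Hpgds (adjusted p = 0.802) and 0.215 for Alox5ap (adjusted p = 0.823). With the wild-type female arrays of day 3 left out, the estimate was 1.60 for Hpgds and 1.12 for Alox5ap. The wild-type arrays of day 3 then come from the male culture alone, with a single array per medium. In that culture Hpgds differed between the days by 0.14 with thyroxine and 0.17 in control medium, and Alox5ap by 0.21 and 0.23. Genotype and culture therefore cannot be told apart in these estimates. In the wider list 0 of 36 genes passed for the change with time between genotypes or for the thyroxine difference between genotypes or days.

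In Ptgs2 the genotypes differed in opposite directions in the female and male cultures. Its levels in female cells were 9.91 and 10.33 in Twist1+/- against 8.72 and 9.08 in wild type at 7 days, and 10.88 and 10.83 in Twist1+/- against 10.18 and 10.27 in wild type at 3 days, thyroxine before control. In male cells they were 9.58 and 10.49 in Twist1+/- against 11.43 and 11.35 in wild type at 7 days, and 10.51 and 10.72 in Twist1+/- against 11.79 and 11.79 in wild type at 3 days. Twist1+/- cells were thus higher in 4 of 4 female comparisons and lower in 4 of 4 male comparisons. Each genotype and sex is a single culture, so sex and culture cannot be told apart. The mesenchyme list also differed in opposite directions in the female and male comparisons, lower in Twist1+/- female cells and higher in Twist1+/- male cells, and its part in the Ptgs2 values was not tested.

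For the 4 selected genes, the genes with the most like pattern were taken as those with the smallest root mean square difference over 16 arrays, after each gene was centred on its mean. Hpgd was nearest to Wfdc17 (0.329), C3ar1, the complement C3a receptor (0.341), and Csf2rb2, a receptor chain for interleukin 3 (0.347), where the median gene stood at 1.208. Of the other listed genes Hpgds was nearest to Hpgd, at 0.498. Cysltr1 was nearest to Blnk, an adaptor of immune receptor signalling (0.232), Fcgr4, a receptor for the constant part of antibodies (0.254), and Gpr65, a proton-sensing receptor (0.26), against a median of 0.762, and Alox5ap was rank 14 of all genes at 0.287.

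Ptgs2 was nearest to Ereg, an epidermal growth factor family ligand (0.25), Htr2a, a serotonin receptor (0.264), and Raph1, an actin-regulating protein (0.267), with the median gene at 0.878. Alox5 was nearest to the microRNA gene Mir3110 (0.235), the myosin light chain gene Myl12b (0.322) and Marcksl1 (0.339), with the median gene at 0.573.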

How the data were processed

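RNA of 16 samples, taken from 4 cultures of coronal suture cells, was hybridised to Affymetrix whole-transcript arrays, with 100 ng of total RNA per array, per the labels' protocols. The deposited log2 values, 1 per probe set and array, come from RMA and the program Affymetrix Expression Console as named in the submitters' processing notes, so per the labels the authors had background-corrected and normalised them. No source used here names a version. RMA equalises the arrays, so a shift of all genes could not be seen. Each condition had 3 wells, and the sources used here do not say whether these were pooled. Array medians ran from 3.73 to 3.86, and the number of arrays limits the precision.

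Of 41345 probe sets 23521 carried 1 gene symbol, 1814 several and 16010 none; only the first were named, with the brightest probe set used per gene. Genes whose mean over the arrays reached 3.905 (percentile 40 of named probe sets) were tested in R 4.3.3 with limma 3.58.1, using moderated two-sided tests with an intensity trend and Benjamini-Hochberg adjustment over 13453 genes at 0.05. For thyroxine, each thyroxine array and its control array of the same culture and day formed a fixed block, with 4 residual degrees of freedom. The pairing comes from the labels, which place both media on a plate. Male minus female differences of the media correlated across genes at 0.393 and 0.119 in Twist1+/- cells and 0.721 and 0.771 in wild-type cells, at 7 and 3 days in that order. For genotype and day, the 8 group means and sex were fitted with culture as a random block (statmod 1.5.0, correlation 0.202) and 7 residual degrees of freedom. No term let a culture have its own change with day, so both media arrays of a culture and day counted as separate arrays. Every genotype and sex is 1 culture, so the p-values measure the spread between these arrays, which may be technical, and not that between mice. Any 2 arrays had identical values for at most 2.29% of tested genes.

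The members and lists were chosen with earlier results of these data known. Named were all members, up to 4 genes per direction of the wider list past the threshold and in comparisons without a call its 2 largest estimates per direction, the 3 genes most like each selected gene, marker genes at the head of a list and Klf9. Fits were tested on simulated data. Alternatives were the intensity trend, the filter, the block, the mean of probe sets, the wild-type male culture or the Twist1+/- arrays of day 7 left out, and each replicate left out. The second probe set of Alox5 and Alox5ap was added after seeing the data. Start regions came from RefSeq.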

Additional observations from a re-analysis of the deposited data

Results flagged for a closer look

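The thyroxine difference of Cysltr1 had opposite signs at the 2 times, with 4 of 4 pairs lower with thyroxine at 7 days and 4 of 4 higher at 3 days. The mean differences of the 2 times lay 0.82 apart on the log2 scale. The gene was selected on its pattern, so the difference was not tested, and its levels at 3 days reached below the brightness floor of 3.905.

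The Twist1+/- minus wild-type difference of Ptgs2 was positive in 4 of 4 female comparisons, with a mean of 0.925, and negative in 4 of 4 male comparisons, with a mean of -1.265, a gap of 2.19. It was not tested for the same reason. Each genotype and sex is 1 culture, and the wild-type male culture also stood apart in its marker lists.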

How the results depend on the processing

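The calls of Hpgds, Alox5ap and Ltc4s on day held without the intensity trend, without the filter, without the replicate block, with the mean of probe sets, without the wild-type male culture and without each replicate; the exceptions were the second probe set of Alox5ap (0.393) and the wild-type arrays alone (Hpgds 0.865, Alox5ap 0.67, Ltc4s 0.823). Of the results of the 5 tested genes under alternatives, 379 kept direction and side of the threshold, 35 changed sign, 4 lost and 3 gained a call. For the 4 selected genes a move was set against the SD of the gene's matched differences, and 336 moved by no more than that. Unlike cultures, days and media enter this SD, so it is wide. For Alox5 with thyroxine it was 0.909, against 0.092 for the 2 Twist1+/- pairs at 7 days. A move within it is therefore weak evidence of stability. The 2 larger moves were both of Ptgs2 (day between genotypes, -0.529 and 0.94), and their cause was not tested.

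Counts over all genes depended more on the setting. For thyroxine the 13 genes became 0 without the intensity trend, 0 with no replicate block, 1 without the wild-type male culture, 0 without the Twist1+/- arrays of day 7 and 0 to 29 with a replicate left out. For the thyroxine difference between genotypes the 8 became 0, 0, 0 and 0 under those settings, 5 with the mean of probe sets and 0 to 202 with a replicate left out. For that between days the 1 gene became 0 without the intensity trend, the filter, the pairing block, with the mean of probe sets or without the Twist1+/- arrays of day 7, and 0 to 17 with a replicate left out. For genotype 0 became 310 without the wild-type male culture, where genotype and sex fix the culture so that no spread between cultures enters, and 0 to 37 with a replicate left out. For day 2493 became 2 without the Twist1+/- arrays of day 7, which also left no fit of day between genotypes, and 1056 to 3003 with a replicate left out. Without the replicate block the genotype count was 0 and the day count 1842. For day between genotypes 0 became 0 to 304.

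The 35 sign changes were of estimates that had not passed. With a replicate left out, the thyroxine estimate ran from -0.033 to 0.043 for Alox5ap and from -0.174 to 0.009 for Hpgds. That between genotypes ran from -0.005 to 0.145 for Alox5ap, from -0.168 to 0.198 for Hpgds and from -0.003 to 0.297 for Ptger4, and that between days from -0.117 to 0.182 for Ptger4. Genotype ran from -0.44 to 0.03 for Ltc4s and from -0.057 to 0.155 for Ptger4, and day from -0.075 to 0.04 for Ptges. Day between genotypes ran from -0.266 to 0.676 for Ltc4s, from -0.104 to 0.319 for Ptger4 and from -0.18 to 0.05 for Ptges. Without the wild-type male culture, Hpgds had -0.06 for thyroxine between genotypes, Ptger4 -0.06 for thyroxine between days, Ptges -0.048 for genotype, and Ltc4s -0.302 and Ptger4 -0.12 for day between genotypes. Without the Twist1+/- arrays of day 7, Ptges had 0.015 for day and Ptger4 -0.005 for genotype. Alox5ap had 0.268 for thyroxine between days with the mean of probe sets and 0.68 with its second probe set, which gave -0.125 for day between genotypes.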

Other observations

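Within the wider list, 5 genes with smaller rises by 7 days were not described above. Ggt5, which removes glutamate from leukotriene C4, was higher by 0.341 (limma, adjusted p = 0.0438), the prostacyclin receptor Ptgir by 0.337 (adjusted p = 0.049), the prostaglandin E2 receptor Ptger2 by 0.301 (adjusted p = 0.0429), the glutathione transferase Mgst3 by 0.301 (adjusted p = 0.036) and the prostaglandin reductase Ptgr2 by 0.226 (adjusted p = 0.0229). These were chosen for naming after their values were seen. For the 2 receptors the wild-type male arrays at 3 days did not stand apart, with 4.98 for Ptgir and 4.24 for Ptger2 against 5.03 and 4.10 in the other cultures. Mgst3 averaged 6.70 there against 6.05.

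The cytosolic phospholipase Pla2g4a, which frees arachidonic acid, averaged 8.61 at 7 days and 8.78 at 3 days, with a difference of -0.171 that did not pass (adjusted p = 0.149). Cysltr2, the other cysteinyl leukotriene receptor, averaged 2.07 over 16 arrays and lay below the brightness floor, as did Ltb4r1, a leukotriene B4 receptor, at 3.65, and the prostaglandin D2 receptor Ptgdr, at 3.35.

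For the comparisons between effects, in which 0 of the 36 wider genes passed, the largest estimates were as follows. The thyroxine difference in Twist1+/- minus that in wild-type cells was 0.415 for the prostaglandin E synthase Ptges2 and 0.358 for Pla2g7, and -0.36 for Slco2a1 and -0.353 for the secreted phospholipase Pla2g10. The thyroxine difference at 7 days minus that at 3 days was 0.345 for Ptges2 and 0.30 for Pla2g2e, another secreted phospholipase, and -0.292 for Tbxas1 and -0.262 for Cbr1, a carbonyl reductase. The day difference in Twist1+/- minus that in wild-type cells was 0.972 for Pla2g7 and 0.532 for Ptger2, and -0.81 for the lipoxygenase Alox15 and -0.322 for Pla2g2a.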
